A study of Mus musculus with 33 samples.

Results

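The genes for the glutamate receptors and the auxiliary subunits that travel with them were followed in RNA-seq of the CA1 region of the mouse hippocampus. They were taken by name, and 36 genes in 8 groups were looked up: 4 AMPA, 7 NMDA, 5 kainate and 1 delta receptor subunit, 6 metabotropic receptors, 6 transmembrane AMPA receptor regulatory proteins (TARPs), 5 cornichon or Shisa proteins and 2 kainate auxiliary subunits. All 36 genes were found once among the 38355 genes of the count files of aged mice and also in the FPKM files of young mice, where 39 of 40678 loci held one of them.

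Glutamate opens AMPA receptors for fast transmission at CA1 synapses, NMDA receptors for the calcium entry that starts long-term potentiation, and kainate receptors at both sides of the synapse, while metabotropic receptors signal through G proteins. The ionotropic receptors are assembled from several subunits, and the mix sets their calcium permeability and their kinetics. TARPs, cornichons, Shisa proteins and the Neto proteins bind the finished channels, carry them to the surface and slow or speed their gating.

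The 3 groups of aged mice were 8 to 10 months old, and female by the study's methods: APP mice given JQ1 at 50 mg per kg (n = 6), APP mice given vehicle with 10% DMSO (n = 6), and WT mice given the same vehicle (n = 4), all by intraperitoneal injection for 10 days. APP mice here are the APP/PS1-21 line, which carries transgenes driven by the neuronal Thy1 promoter, mutant human APP among them, in a C57B/6 background. The strain label of the aged WT mice also names that line, while their titles call them WT. The 2 groups of young WT mice of the strain C57B/6JRj were 3 months old, male by the study's methods, and were given JQ1 at 50 mg per kg (n = 8) or vehicle with 10% DMSO (n = 8) intraperitoneally for 13 days. By the study's methods the mice for RNA-seq had been trained in a water maze, a spatial memory task, and were killed after its probe test. JQ1 blocks the bromodomains of BET proteins, through which these proteins read acetylated histones. The labels number the samples without naming animals, so the p-values measure the spread between these samples.

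Between 14605459 and 25339482 reads per aged library were counted on genes, and 3 reads correspond to 0.118 to 0.205 CPM (gene counts relative to library size). None of the 5 CA1 pyramidal marker genes was at 0 in any group, and their summed level lay between 719 and 1149 CPM. The library labelled APP JQ1 replicate 4 goes against its label. Its Thy1 level of 820 CPM lay near the 841 to 1070 CPM of WT mice and far from the 1618 to 2070 CPM of the other JQ1-treated APP libraries, and its astrocyte and microglia marker sums of 1627 and 310 CPM lay just above the WT ranges of 1355 to 1466 and 284 to 307 CPM. Aged WT replicate 1 had a CA3 marker sum of 247 CPM against 107 to 119 CPM in the other WT libraries and a dentate granule cell marker sum of 57.6 CPM against 170 to 195 CPM, and aged WT replicate 4 had a choroid plexus marker sum of 3181 CPM against at most 142 CPM elsewhere. No library was left out. For some genes edgeR values without APP JQ1 replicate 4, without aged WT replicate 1 and without all 3 of these libraries are given below. The DESeq2 calls, the fits with a GC offset, the counts of groups that do not overlap and the other gene lists are given only with these libraries included.

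Levels can be compared between genes only per length, and the FPKM of young mice (fragments scaled to transcript length and library size) were used for this. Gria2, the AMPA subunit whose edited form keeps the channel closed to calcium, stood highest of all with 646 ± 129.95 FPKM (SD, n = 8) in vehicle-treated young mice. Grin1, the subunit present in every NMDA receptor, followed with 212 ± 18.6 FPKM, then Gria1, the AMPA subunit inserted during potentiation, with 189.6 ± 25.1 FPKM, and Cnih2, a cornichon that slows AMPA receptor closing, with 167 ± 20.1 FPKM. The ranges of Grin1 and Gria1 overlapped, as did those of Gria1 and Cnih2, while the lowest mouse for Gria2, at 504.8 FPKM, stood above the highest for Grin1, at 236 FPKM. At the other end Grin3b was close to absent, with 0.046 ± 0.018 FPKM in young mice and between 0 and 0.754 CPM in aged mice, and the TARP Cacng5, with 2.64 ± 0.223 FPKM, and the group III receptor Grm4, with 4.47 ± 0.759 FPKM, were the next lowest genes by their summed loci.

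In the AMPA and NMDA families 1 gene held most of the level. Gria2 made up 66.3% ± 4.83 of the summed AMPA subunit FPKM (SD, n = 8 vehicle-treated young mice) and Gria1 19.9% ± 3.50, and Grin1 made up 65.8% ± 1.69 of the NMDA subunits, with Grin2b at 16.3% ± 1.18 and Grin2a at 8.13% ± 0.762. Grik5, a kainate subunit with high glutamate affinity that needs a partner to form a channel, made up 44.4% ± 3.41 of its family and Grik2 23.3% ± 2.35. Cacng7 led the TARPs at 72.7 ± 6.04 FPKM, Grm5, the receptor coupled to calcium release, led the metabotropic receptors at 57.5 ± 6.28 FPKM, Neto1 led the kainate auxiliary subunits at 23.3 ± 2.43 FPKM in the first of its 2 loci, and Grid1, the only delta subunit followed, stood at 13.5 ± 0.664 FPKM. In the FPKM files 7 genes shared their locus with another gene (Gria2, Gria3, Gria4, Grik4, Grm8, Cacng8 and Shisa7), and Grin2b, Grin2d and Neto1 were split over 2 loci, so these levels are less certain.

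**Figure D1:**
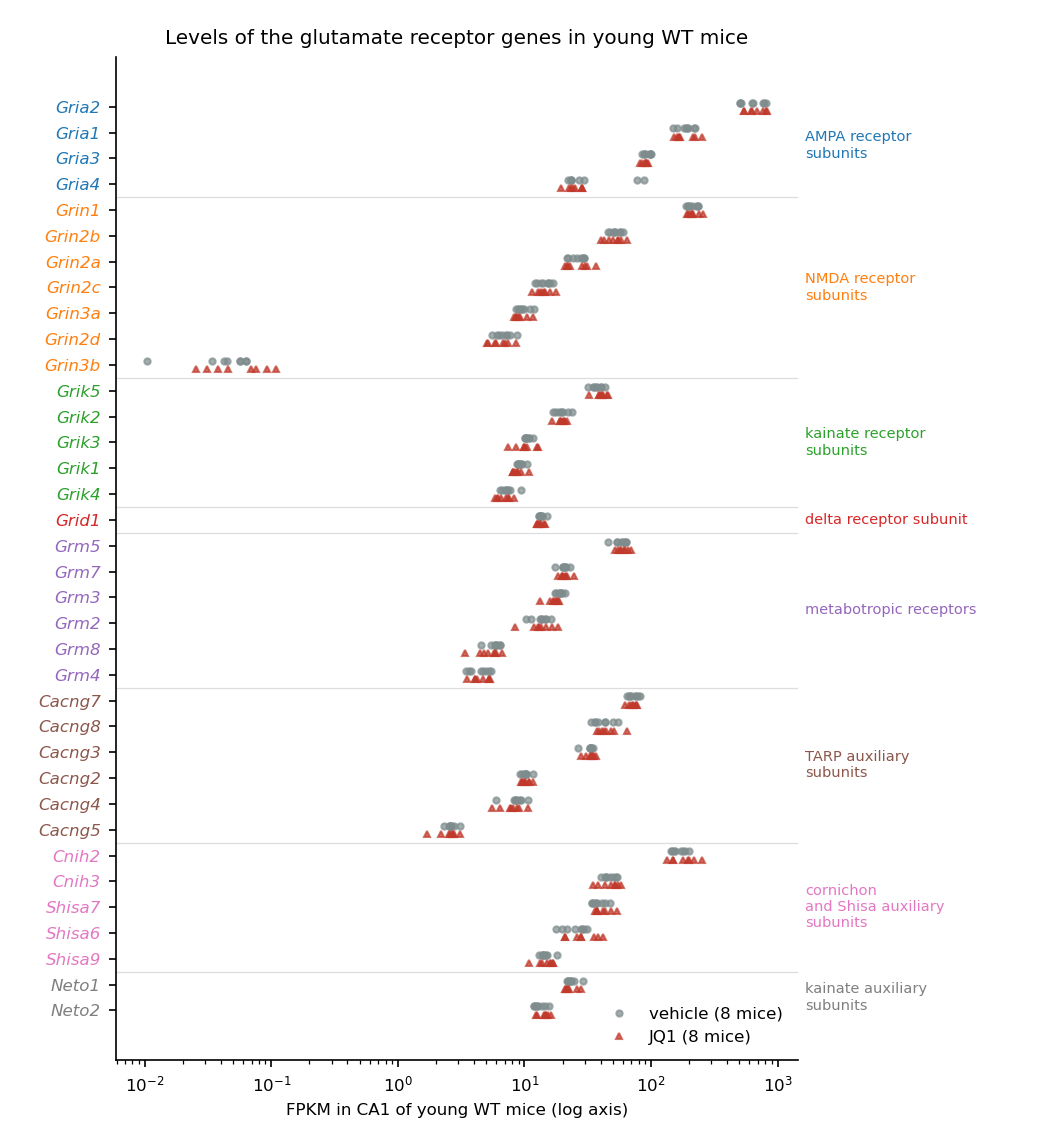
FPKM of the 36 genes in CA1 of young WT mice on a log axis, by receptor group, with 1 point per mouse (circles, 8 vehicle-treated mice; triangles, 8 JQ1-treated mice) and the 2 loci of Grin2b, Grin2d and Neto1 summed. Gria2 stands highest and Grin3b lowest, the JQ1 points lie over the vehicle points for nearly every gene, and 2 vehicle-treated mice stand apart for Gria4 at 77.1 and 88.0 FPKM.

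In aged mice the counts per kilobase of exon gave another order for a few genes. The ratio of the young FPKM to the CPM per kb of exon in aged WT mice had a median of 1.52 over 34 genes and ran from 0.545 for Cnih2 to 8.85 for Gria2. For Grin2a and Grin2b it was 58.6 and 58.5. These genes stood at 0.447 and 0.900 CPM per kb in aged WT mice and at 26.2 and 52.6 FPKM in young mice. The annotation used to count reads is not given in the sources used here, the 2 experiments differ in age and counting, and the cause of the gap was not tested, so the order of genes in aged mice is not described, and the ratios of pairs of subunits given below are compared between groups only.

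With JQ1 in APP mice 1 of the 35 genes that passed the filter on low counts changed past the threshold of an adjusted p of 0.05. This was Grm4, which fell, and 1.08% of all 16962 genes tested passed the same threshold, 0.466% of them as lower. The median log2 fold change of the 35 genes was -0.02, beside -0.0010 over all genes. At an unadjusted p under 0.05 there were 12 of 35 genes, beside 17.6% of all genes. In the comparison of vehicle-treated APP mice with aged WT mice no gene passed edgeR's threshold (2.57% of all genes did), 8 of 35 had an unadjusted p under 0.05 (14.4% of all genes) and the median log2 fold change was -0.07, beside 0.0093 over all genes. In JQ1-treated APP mice against aged WT mice there were again 0 genes past edgeR's threshold (2.06% of all genes), 4 with an unadjusted p under 0.05 (14.1%) and a median of -0.11, beside 0.00065 over all genes. DESeq2, which the study's methods name, called 6 of 36 genes with JQ1 in APP mice (2.7% of the 27729 genes with a p-value), 2 in vehicle-treated APP mice against WT mice (2.86%) and 1 in JQ1-treated APP mice against WT mice (2.85%). These DESeq2 shares include low genes that edgeR's filter left out, so they are not a like background for the 36 genes. The first and the second of these comparisons share the vehicle-treated APP mice, so opposite directions between them are not separate evidence. The second and the third share the WT mice, and the first and the third share the JQ1-treated APP mice. The same direction within either of these pairs is not separate evidence either. RNA of whole CA1 tissue was measured, in which fewer cells of a type and less RNA per cell cannot be told apart.

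**Figure D2:**
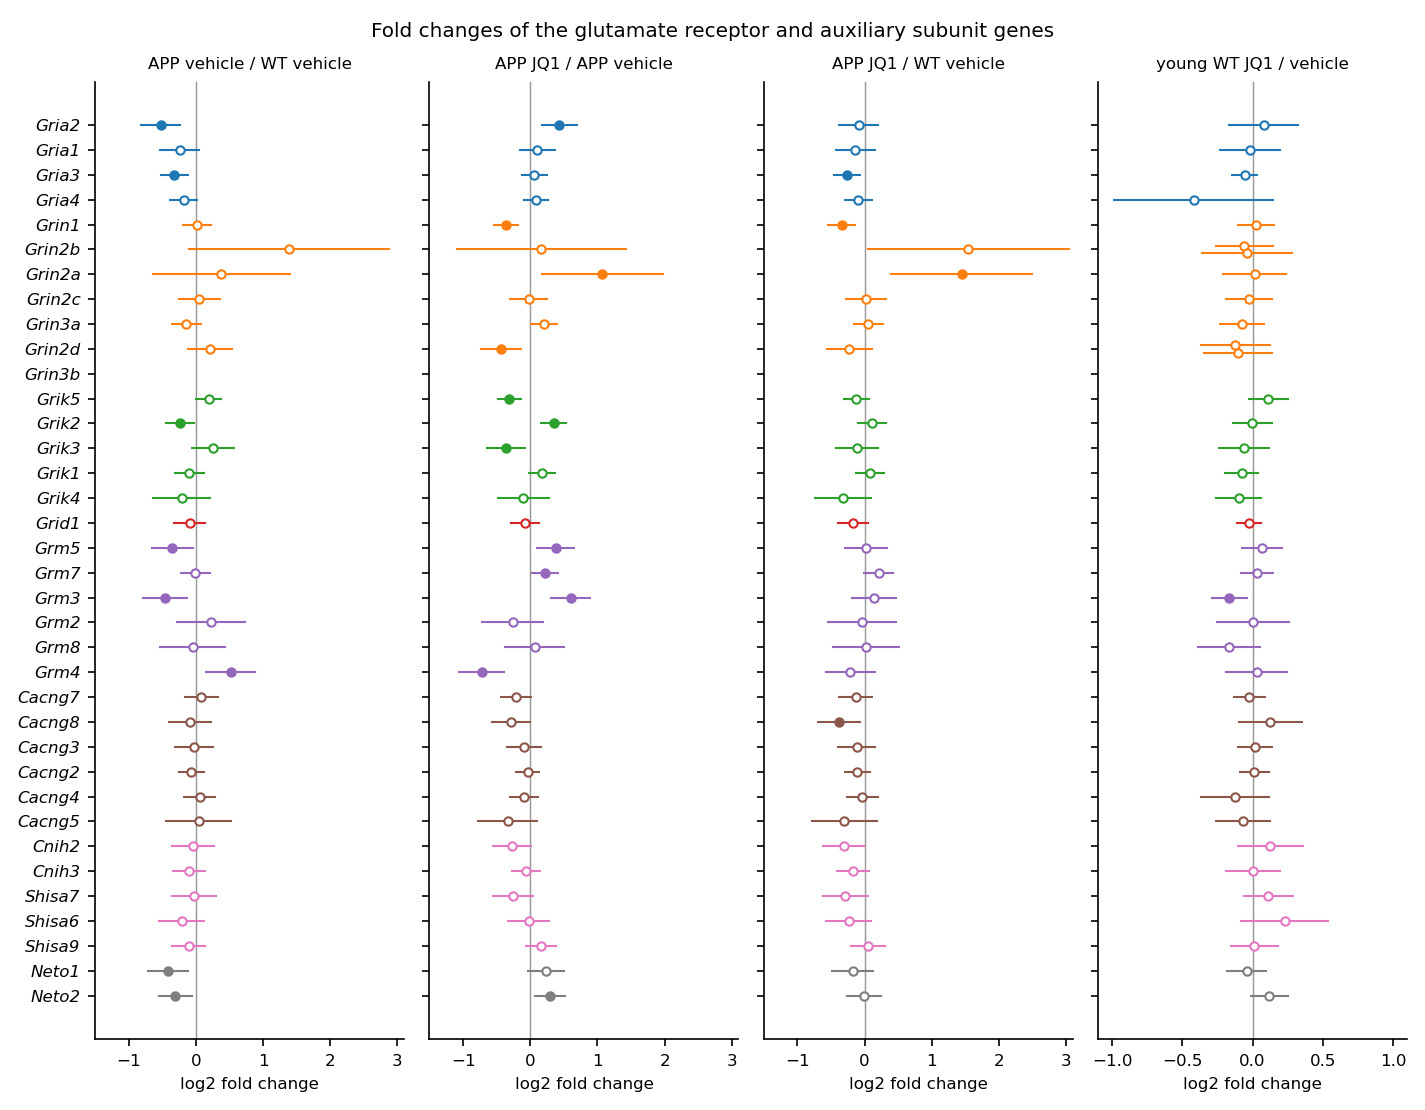
Log2 fold changes of the 35 tested genes in the 3 comparisons of aged mice (edgeR) and in young WT mice (limma, 1 point per locus), with bars for the 95% interval and filled points where the unadjusted p was under 0.05. The 4 AMPA subunits lie below 0 in vehicle-treated APP mice against WT mice and above 0 with JQ1 in APP mice, Grin2a and Grin2b have the widest bars in the aged comparisons, and young WT mice (drawn on a narrower axis) lie close to 0.

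All 4 AMPA subunits had lower means in vehicle-treated APP mice than in WT mice and higher means with JQ1 than with vehicle in APP mice, though none passed edgeR's threshold and, with the offset for GC content described further on, Gria3 and Gria4 had lower means with JQ1 (-0.17 and -0.05). In vehicle-treated APP mice against WT mice markers of other cells moved too: 3 of 6 microglia markers and 1 of 6 astrocyte markers rose past edgeR's threshold (median log2 fold changes 1.05 and 0.40), and the median of 5 CA3 markers was -0.62 with 0 past the threshold. The part of these cells in the AMPA subunit levels was not tested. Gria2 (ENSMUSG00000033981, chr3:80681450-80802835, minus strand, GRCm38) stood at 650 to 942 CPM (median 791, n = 6) in vehicle-treated APP mice, at 805 to 1397 CPM (median 1031, n = 6) in JQ1-treated APP mice and at 1346, 1103, 1026 and 1066 CPM in the 4 WT mice. Every vehicle-treated APP mouse lay below every WT mouse, and 4 of the 6 JQ1-treated mice lay above the highest vehicle-treated mouse. The log2 fold change of Gria2 was -0.52 (SE 0.15) in vehicle-treated APP mice against WT mice, with an adjusted p of 0.0692 in edgeR, and 0.44 (SE 0.13) with JQ1 in APP mice, with an adjusted p of 0.107. DESeq2 gave adjusted p-values of 0.0173 and 0.0356 for these 2 comparisons. With the GC offset the first difference was -0.38 (adjusted p = 0.0958 in edgeR) and, with the GC and length offset and the replicate number as a block, -0.31 (adjusted p = 0.171). Over all genes the medians of this comparison in these 2 fits were -0.07 and -0.07.

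Gria3 (ENSMUSG00000001986, chrX:41400854-41678601, plus strand), a subunit that pairs with Gria2, lay at 245 to 329 CPM (median 319) in vehicle-treated APP mice, 269 to 359 CPM (median 339) with JQ1 and 347, 385, 384 and 414 CPM in WT mice. Again no vehicle-treated APP mouse reached the lowest WT mouse, and the log2 fold change was -0.32 (SE 0.10) with an adjusted p of 0.121 in edgeR and 0.0455 in DESeq2. With JQ1 in APP mice the difference was only 0.06 (SE 0.09). Gria1 (ENSMUSG00000020524, chr11:57011387-57330244, plus strand) spread from 794 to 1110.4 CPM (median 975) with vehicle, from 664 to 1217 CPM (median 1084) with JQ1, and over 1211, 1082, 977 and 1199.5 CPM in WT mice, and all 3 groups overlapped. Gria4, with 65.7 to 103 CPM over the aged mice, had log2 fold changes between -0.18 and 0.09. Of all 16962 genes, 6.99% had groups that did not overlap between vehicle-treated APP mice and WT mice, 2.05% with the APP mice lower, and of the 35 genes 3 did, Gria2, Gria3 and Neto2, all lower.

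**Figure D3:**
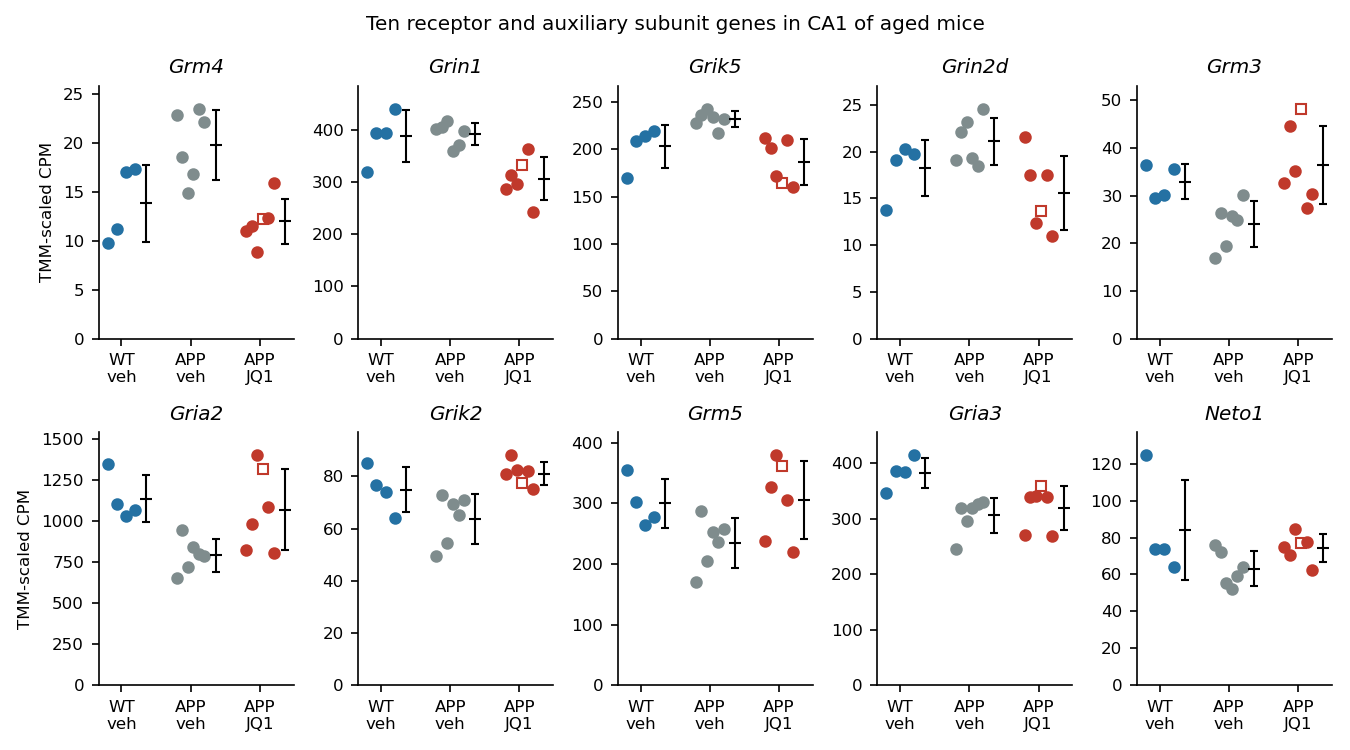
TMM-scaled CPM of the 10 genes with the smallest unadjusted p in any comparison, in CA1 of aged mice, with 1 point per library (4 WT vehicle, 6 APP vehicle and 6 APP JQ1), black bars for the mean and SD, and an open square for the library labelled APP JQ1 replicate 4. Grik5 and Grik2 are the genes whose APP groups do not overlap, and aged WT replicate 1 stands apart for Neto1 at 125 CPM.

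Among the NMDA subunits Grin1, Grin2d and Grin2c had lower means with JQ1 in APP mice, Grin2c with a log2 fold change of only -0.02. Grin1 (ENSMUSG00000026959, chr2:25291181-25319187, minus strand) stood at 359 to 416 CPM (median 399.6) with vehicle, at 243 to 363 CPM (median 305) with JQ1, and at 319.6, 395, 395 and 439.9 CPM in WT mice. A single pair overlapped, since 5 of the 6 JQ1-treated mice lay below the lowest vehicle-treated mouse. The log2 fold change was -0.36 (SE 0.09), with an adjusted p of 0.0674 in edgeR and 0.0139 in DESeq2. Against WT mice the JQ1-treated APP mice had a log2 fold change of -0.34 (SE 0.10), with adjusted p-values of 0.104 in edgeR and 0.0374 in DESeq2, whereas vehicle-treated APP mice differed from WT mice by 0.02 (SE 0.10). Grin2d (ENSMUSG00000002771, chr7:45831883-45878378, minus strand), the slowly closing subunit of interneurons, lay at 18.5 to 24.6 CPM (median 20.8) with vehicle, 10.98 to 21.6 CPM (median 15.6) with JQ1 and at 13.8, 19.1, 20.3 and 19.8 CPM in WT mice. Its log2 fold change with JQ1 was -0.44 (SE 0.15), with an adjusted p of 0.148 in edgeR, and -0.08 with the GC offset (adjusted p = 0.898). The summed level of 6 interneuron markers in the same libraries was 693 to 921 CPM with JQ1 and 727 to 935 CPM with vehicle. Grin2c and Grin3a had log2 fold changes between -0.14 and 0.20 in the 3 comparisons.

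Grin2b and Grin2a, the subunits whose balance shifts from slow to fast NMDA currents as the brain matures, had the widest standard errors of the 35 genes. With JQ1 in APP mice their log2 fold changes were 0.17 (SE 0.64) and 1.07 (SE 0.46, adjusted p = 0.242 in edgeR). In JQ1-treated APP mice against WT mice they were 1.55 (SE 0.76, adjusted p = 0.394) and 1.45 (SE 0.54, adjusted p = 0.217). Grin2b ranged from 8.53 to 141 CPM in vehicle-treated APP mice, from 24.9 to 129 CPM in JQ1-treated APP mice and from 8.22 to 33.5 CPM in WT mice, and Grin2a from 4.19 to 23.3 CPM, from 7.61 to 38.3 CPM and from 4.33 to 10.4 CPM. Over the 16 aged libraries both were higher in libraries with a larger share of uniquely aligned reads outside exons, which ran from 15.4% to 26.9%. Across these libraries Grin2b (log2 CPM) correlated with that share at r = 0.93 and rho = 0.91, each with a permutation p of 1e-05, the smallest that 100000 resamples can give, and with an adjusted p of 0.00035 over the 35 genes computed. For Grin2a r was 0.76 (permutation p = 0.00084, adjusted 0.0147) and rho 0.68 (permutation p = 0.00468, adjusted 0.0819). Without the 2 libraries farthest from the median share r was 0.91 for Grin2b and 0.65 for Grin2a, and within the JQ1-treated and the vehicle-treated APP mice (n = 6 each) r was 0.97 and 0.98 for Grin2b and 0.49 and 0.99 for Grin2a. No other gene of the 35 passed the correction in either measure. The ratio of Grin2a to Grin2b did not differ past the threshold in any comparison: with JQ1 in APP mice the log2 ratio was higher by 0.69 (two-sided exact permutation p = 0.121, adjusted 0.242 over 8 ratio tests) and in vehicle-treated APP mice it was below WT mice by a difference of -0.80 (exact permutation p = 0.0619, adjusted 0.165).

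**Figure D4:**
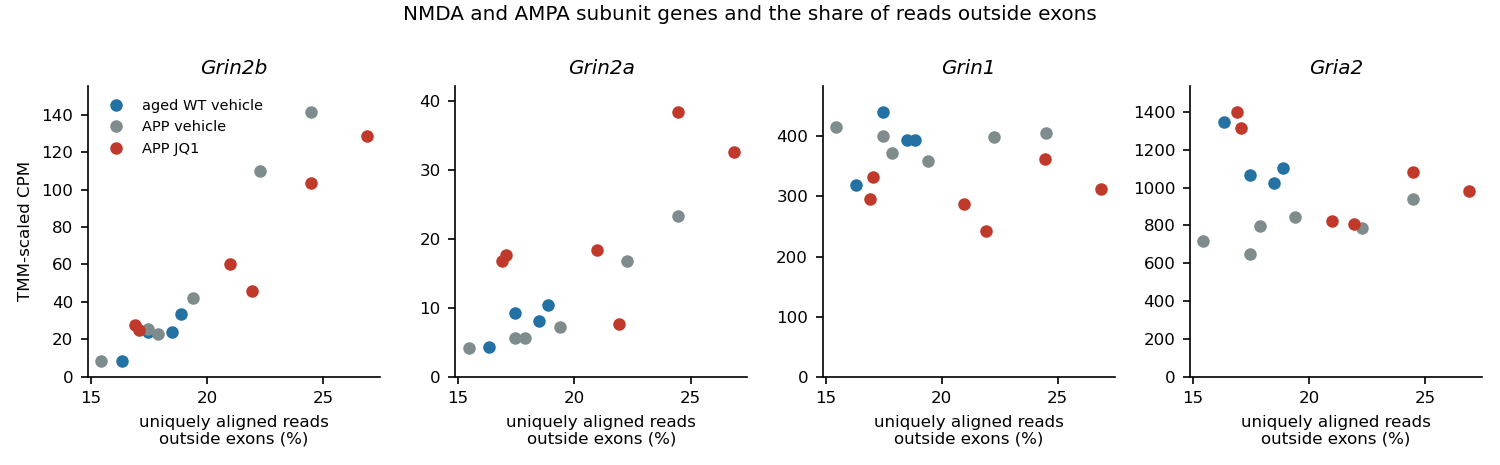
TMM-scaled CPM of Grin2b, Grin2a, Grin1 and Gria2 against the percentage of uniquely aligned reads outside exons in the 16 aged libraries, coloured by group. Grin2b climbs from 8.22 to 141 CPM along the axis (r = 0.93 on the log2 scale), Grin2a climbs less tightly (r = 0.76), and Grin1 and Gria2 show no such slope (r = -0.21 and -0.12).

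Of the kainate subunits Grik5 and Grik2 were the genes whose JQ1 and vehicle groups in APP mice did not overlap, in opposite directions. Of the 35 genes 2 had groups that did not overlap, beside 2.03% of all genes, of which 0.878% were higher and 1.15% lower with JQ1. Grik5 (ENSMUSG00000003378, chr7:25009849-25072346, minus strand) stood at 217 to 243 CPM (median 233) with vehicle, at 160.03 to 212 CPM (median 186) with JQ1 and at 170.1, 208, 215 and 219 CPM in WT mice. Grik2 (ENSMUSG00000056073, chr10:49094833-49788766, minus strand), which forms channels on its own or with Grik5, stood at 49.5 to 73.0 CPM (median 67.3) with vehicle, at 75.1 to 88.0 CPM (median 81.4) with JQ1 and at 85.0, 76.8, 73.9 and 63.9 CPM in WT mice. The log2 fold changes with JQ1 were -0.31 (SE 0.09) for Grik5 and 0.35 (SE 0.10) for Grik2, with adjusted p-values of 0.0769 and 0.0775 in edgeR and 0.0198 and 0.0207 in DESeq2. Grik3 had a log2 fold change of -0.36 (SE 0.14, adjusted p = 0.196 in edgeR), and Grik1 and Grik4 of 0.18 and -0.10. The kainate auxiliary subunits Neto1 and Neto2 lay below WT mice in vehicle-treated APP mice, with log2 fold changes of -0.41 (SE 0.15) and -0.31 (SE 0.13), and had log2 fold changes of 0.24 (SE 0.14) and 0.29 (SE 0.11) with JQ1 in APP mice, which turned to -0.0015 and -0.02 with the GC offset. Adjusted p-values for Neto1 and Neto2 in edgeR lay between 0.192 and 0.393 in these 2 comparisons. Neto1 (ENSMUSG00000050321, chr18:86394952-86506718, plus strand) stood at 52.0 to 75.9 CPM (median 61.6) with vehicle, at 62.1 to 84.5 CPM (median 75.7) with JQ1, and at 125, 74.0, 73.7 and 64.2 CPM in WT mice, where the first value belongs to the replicate with the high CA3 marker sum. The highest vehicle-treated APP mouse lay above 3 of the 4 WT mice, and without that WT replicate the differences between vehicle-treated APP mice and WT mice were -0.17 for Neto1 (adjusted p = 0.698 in edgeR) and -0.19 for Neto2 (0.687).

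The metabotropic receptors held Grm4, the gene past the threshold, and Grm3, the next by p. Grm4 (ENSMUSG00000063239, chr17:27422387-27521403, minus strand), a presynaptic receptor that limits transmitter release, stood at 14.9 to 23.5 CPM (median 20.4) in vehicle-treated APP mice, at 8.86 to 15.9 CPM (median 11.9) in JQ1-treated APP mice and at 9.76, 11.2, 17.0 and 17.4 CPM in WT mice. The APP groups overlapped in 1 pair of libraries only. Grm4 fell by 0.72 on the log2 scale with JQ1 (SE 0.17, adjusted p = 0.0422 in edgeR), a ratio of means of 0.605, and its difference between vehicle-treated APP mice and WT mice was 0.52 (SE 0.19, adjusted p = 0.197) and 0.32 with the GC offset. The call on Grm4 was kept in 5 of the 16 fits that left out 1 library each and lost in the other 11, where the log2 fold change stayed between -0.82 and -0.65 over all 16. Grm3 (ENSMUSG00000003974, chr5:9485541-9725170, minus strand), a receptor of neurons and astrocytes, stood at 17.0 to 30.2 CPM (median 25.3) with vehicle, at 27.5 to 48.2 CPM (median 33.9) with JQ1 and at 36.5, 29.5, 30.1 and 35.5 CPM in WT mice. Its log2 fold change with JQ1 was 0.60 (SE 0.15), with an adjusted p of 0.0552 in edgeR and 0.00698 in DESeq2, and -0.46 (SE 0.16, adjusted p = 0.186 in edgeR) in vehicle-treated APP mice against WT mice. The summed level of 6 astrocyte markers ran from 2421 to 6444 CPM in vehicle-treated and from 1627 to 5876 CPM in JQ1-treated APP mice, and from 1355 to 1466 CPM in WT mice, and none of the 6 passed edgeR's threshold with JQ1. The part of these cells in the level of Grm3 was not tested.

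Grm5 (ENSMUSG00000049583, chr7:87584168-88134907, plus strand) stood at 171 to 288 CPM (median 245) with vehicle, at 220.3 to 379 CPM (median 316) with JQ1 and at 356, 302, 264 and 278 CPM in WT mice. The groups overlapped, with a log2 fold change of 0.38 with JQ1 (SE 0.14, adjusted p = 0.178 in edgeR) and of -0.35 in vehicle-treated APP mice against WT mice (SE 0.16, adjusted p = 0.307). Grm7, a presynaptic receptor of low glutamate affinity, stood at 56.2 to 59.9 CPM in the 6 JQ1-treated APP mice, above the 46.3 to 55.9 CPM of the WT mice, and was the only gene of the 35 whose groups did not overlap in that comparison (3.71% of all genes, 2.55% as higher), although its log2 fold change of 0.21 (SE 0.11) had an adjusted p of 0.423 in edgeR and was 0.11 with the GC offset. Grm2 and Grm8 had log2 fold changes between -0.26 and 0.23 in the 3 comparisons, with standard errors of 0.22 to 0.26.

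No AMPA receptor auxiliary subunit passed the threshold. All 6 TARPs had lower means with JQ1 than with vehicle in APP mice, with log2 fold changes from -0.34 to -0.04 and a smallest adjusted p of 0.306 in edgeR, although with the GC offset Cacng3, Cacng4 and Cacng8 had 0.03, 0.02 and 0.08. Cacng7 (ENSMUSG00000069806, chr7:3332955-3368221, plus strand), the TARP with the highest level, stood at 121 to 179 CPM (median 161) with vehicle, at 112 to 148 CPM (median 143) with JQ1 and at 109, 162, 153 and 171 CPM in WT mice. Cacng8, the main TARP of hippocampal pyramidal cells, stood at 58.9 to 84.1 CPM with vehicle and at 37.0 to 80.9 CPM with JQ1, and its log2 fold change in JQ1-treated APP mice against WT mice was -0.38 (SE 0.16, adjusted p = 0.279 in edgeR) and -0.24 with the GC offset. Of the 5 cornichon and Shisa genes 4 had lower means with JQ1 in APP mice, of which Cnih2 and Cnih3 had 0.04 and 0.02 with the GC offset. Cnih2 (ENSMUSG00000024873, chr19:5092868-5098521, minus strand) stood at 344 to 510.2 CPM (median 390.1) with vehicle, at 261 to 447 CPM (median 318) with JQ1 and at 298, 445, 418 and 515 CPM in WT mice, with a log2 fold change of -0.27 (SE 0.14, adjusted p = 0.338 in edgeR). The delta subunit Grid1 (ENSMUSG00000041078, chr14:34820108-35583379, plus strand), a synapse organizer, stood at 57.6 to 87.6 CPM (median 74.7) with vehicle, at 53.7 to 84.9 CPM (median 71.7) with JQ1 and at 75.3, 78.2, 79.05 and 85.9 CPM in WT mice, with log2 fold changes between -0.17 and -0.08 in the 3 comparisons.

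Without the library labelled APP JQ1 replicate 4 no gene of the 35 passed edgeR's threshold with JQ1 in APP mice, where 73 genes in all did. The log2 fold changes were then -0.73 for Grm4 (adjusted p = 0.0920), 0.51 for Grm3 (0.132), -0.38 for Grin1 (0.102), -0.27 for Grik5 (0.170), 0.36 for Grik2 (0.132) and 0.37 for Gria2 (0.226). Gria2 passed edgeR's threshold in vehicle-treated APP mice against WT mice in that fit, with -0.54 (adjusted p = 0.0424), a comparison of 2 groups to which this library does not belong. Without aged WT replicate 1, in turn, 5 of 36 genes and 446 of 17330 genes in all passed edgeR's threshold with JQ1 in APP mice. These were Grm4 (-0.72, adjusted p = 0.0242), Grin1 (-0.35, 0.0366), Grik5 (-0.31, 0.0416), Grm3 (0.61, 0.0426) and Grik2 (0.35, 0.0497), whose log2 fold changes hardly moved. In the comparisons of vehicle-treated and JQ1-treated APP mice with WT mice 0 of 36 genes passed in that fit, and the difference of Gria2 in the former was -0.44 (adjusted p = 0.258). Leaving out that library together with aged WT replicates 1 and 4, an alternative chosen after seeing the data, also left 0 of 36 genes past the threshold in each comparison, with 95, 253 and 286 of 17777 genes past it in edgeR.

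The direction of the JQ1 difference in APP mice differed with the base composition of the exons, taken from the longest transcript of each gene. Of the 18 genes with an exonic GC content of 49.9% or more, all 18 had lower means with JQ1 (median log2 fold change -0.26), and of the 17 genes below it 16 had higher means (median 0.20), the exception being Shisa6 with -0.02. Gria2, Grik2, Neto2 and Grm5, at 36.8%, 37.9%, 36.5% and 42.5% GC, were among the higher ones, and Grin1, Grik5, Grm4 and Grin2d, at 59.4%, 61.7%, 61.7% and 65.0%, among the lower ones. Spearman's rho between GC content and fold change was -0.84 across the 35 genes and -0.57 across 16770 genes, in the same libraries, and genes are not independent replicates. Of the other genes, 73.8% of the 8288 with the same or a higher GC content had lower means with JQ1 and 73.0% of the 8447 below it had higher means. In vehicle-treated APP mice against WT mice rho across the 35 genes was 0.61.

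The same split was computed within each library, as the median log2 level (relative to the mean of all 16 aged libraries) of the 17 genes of low GC content minus that of the 18 genes of high GC content. This difference lay between 0.08 and 0.46 in the 6 JQ1-treated APP libraries and between -0.39 and -0.07 in the 6 vehicle-treated APP libraries, and was -0.19, -0.14, 0.0072 and 0.54 in WT mice, the last in replicate 1. The same difference over the other genes lay between -0.02 and 0.26, between -0.20 and -0.08, and between -0.08 and 0.26 in these groups. With an offset for GC content in the fit, 12 of the 18 and 11 of the 17 genes kept these directions, rho was -0.24, 0 of 35 genes and 25 of all genes passed edgeR's threshold, and the log2 fold changes were -0.43 for Grm4, 0.54 for Grm3, 0.13 for Gria2, 0.08 for Grik2, -0.10 for Grin1, -0.02 for Grik5, 0.20 for Grm5 and -0.00029 for Cacng7. Grin2a kept 0.96 (SE 0.47, adjusted p = 0.627 in edgeR). The genes whose direction turned were Grin2c (0.28), Cacng3, Cacng4, Cacng8, Cnih2 and Cnih3 among those of high GC content, and Gria3, Gria4, Grm8 (-0.13), Neto1 and Neto2 among those of low GC content. Against WT mice the GC offset also moved the median over all genes, to -0.069 in vehicle-treated and -0.080 in JQ1-treated APP mice. Offset values of genes in those comparisons are to be read beside these medians. Whether the composition of the RNA or of the libraries differed was not tested.

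**Figure D5:**
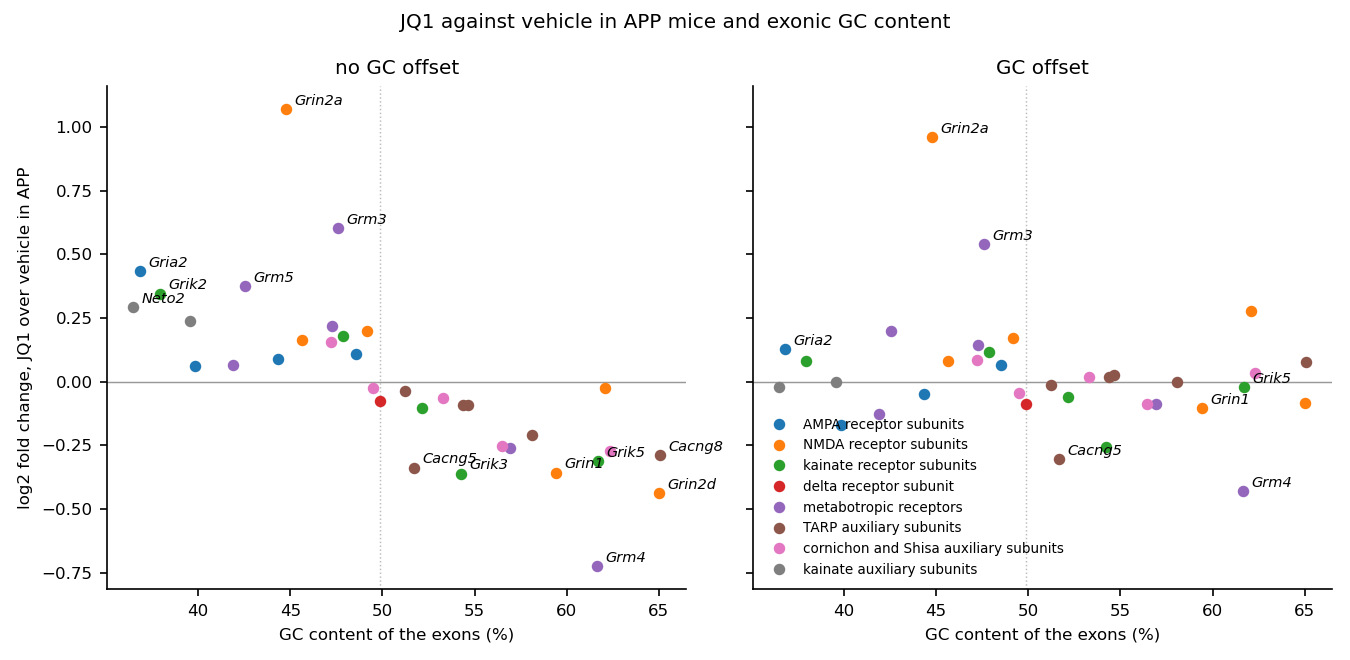
Log2 fold change with JQ1 against vehicle in APP mice for 35 genes against the GC content of their exons in percent, without and with an offset for GC content in the edgeR fit, coloured by receptor group, with a dotted line at the median of 49.9%. Without the offset the points run from upper left to lower right (rho = -0.84). With it most lie near 0 (rho = -0.24) while Grin2a, Grm3 and Grm4 keep 0.96, 0.54 and -0.43.

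The promoters of 2 genes that were higher with JQ1 in APP mice (Gria2, Grm3) and of 2 that were lower (Grin1, Grik5) are shown to set their base composition beside that of the exons. RefSeq promoters on GRCm38.p6 were matched for 23 of the 36 genes. Each line gives the 250 bases before the start of transcription, 5′ to 3′ on the strand of the gene, with CG dinucleotides in capitals.
Gria2, chr3:80802836-80803085, minus strand: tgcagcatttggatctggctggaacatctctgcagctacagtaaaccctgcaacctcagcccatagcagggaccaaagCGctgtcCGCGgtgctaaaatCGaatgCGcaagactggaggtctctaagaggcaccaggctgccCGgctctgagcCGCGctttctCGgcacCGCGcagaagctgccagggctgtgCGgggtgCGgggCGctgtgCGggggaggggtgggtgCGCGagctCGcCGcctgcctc
Grm3, chr5:9725353-9725602, minus strand: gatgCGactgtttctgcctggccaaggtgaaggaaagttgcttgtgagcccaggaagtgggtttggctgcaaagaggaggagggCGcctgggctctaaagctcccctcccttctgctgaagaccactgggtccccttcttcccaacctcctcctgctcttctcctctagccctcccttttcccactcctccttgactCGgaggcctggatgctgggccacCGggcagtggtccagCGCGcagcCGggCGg
Grin1, chr2:25319188-25319437, minus strand: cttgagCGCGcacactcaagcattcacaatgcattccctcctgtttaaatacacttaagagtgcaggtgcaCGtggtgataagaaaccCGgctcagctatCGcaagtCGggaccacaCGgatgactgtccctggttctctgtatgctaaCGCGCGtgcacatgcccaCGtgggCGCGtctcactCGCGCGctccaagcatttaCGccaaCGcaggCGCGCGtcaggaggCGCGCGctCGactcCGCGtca
Grik5, chr7:25072370-25072619, minus strand: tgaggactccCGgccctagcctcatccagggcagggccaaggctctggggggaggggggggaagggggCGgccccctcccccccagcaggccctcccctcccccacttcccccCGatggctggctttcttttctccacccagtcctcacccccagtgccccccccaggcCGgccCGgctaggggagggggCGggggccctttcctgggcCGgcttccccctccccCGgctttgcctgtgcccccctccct
The Gria2 promoter held 19 CG dinucleotides, the Grm3 promoter 8, the Grin1 promoter 27 and the Grik5 promoter 8, and 19.7%, 43.0%, 8.56% and 43.0% of 32851 promoters held at least as many. The GC content of these windows was 64.8% for Gria2, 62.4% for Grm3, 58.8% for Grin1 and 75.2% for Grik5, so that Gria2, with the lowest exonic GC content of the 4, did not have the lowest in its promoter. The letters CACGTG, which read the same on both strands and include a CG, occurred 2 times before Grin1 and not before the other 3 genes (6.02% of all promoters held them), and GGGCGG on either strand, which also includes a CG, occurred 2 times before Grik5, 1 time before Grm3 and not before Gria2 and Grin1 (32.7% of all promoters).

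The ratio of Gria1 to Gria2 bears on the share of AMPA receptors without the calcium-tight subunit. As a log2 ratio of CPM per kb of exon it stood at 1.36 to 1.79 (median 1.65) in vehicle-treated APP mice, at 1.09 to 1.53 (median 1.30) in JQ1-treated APP mice and at 1.21, 1.34, 1.29 and 1.53 in WT mice. The ratio was lower with JQ1 than with vehicle in APP mice by a difference of -0.33 (two-sided exact permutation p = 0.0108, adjusted 0.0762 over 8 ratio tests) and higher in vehicle-treated APP mice than in WT mice by 0.28 (exact permutation p = 0.0190, adjusted 0.0762), and neither held after the adjustment. JQ1-treated APP mice differed from WT mice by -0.05 (exact permutation p = 0.662). In young mice, where the ratio of FPKM was used, Gria2 stood above Gria1, with log2 ratios of -2.14 to -1.23 (median -1.82) with vehicle and -2.11 to -1.61 (median -1.89) with JQ1 and a difference of -0.10 (exact permutation p = 0.473, adjusted 0.630). The sign of the ratio thus differed between the 2 experiments, which differ in age and counting, so these values do not give the order of the 2 genes in aged mice. The exons of Gria1 and Gria2 have a GC content of 48.5% and 36.8%, and the ratio was computed without a GC offset. With the offset Gria1 and Gria2 had log2 fold changes of 0.07 and 0.13 with JQ1 in APP mice, against 0.11 and 0.44 without it. In vehicle-treated APP mice against WT mice they had -0.29 and -0.38, against -0.24 and -0.52 without it. In both comparisons the 2 genes thus lay nearer each other with the offset.

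In young WT mice JQ1 was followed by no difference past the threshold in any of the 37 loci tested, where limma called 1 of 18420 loci (0.00543%). The groups overlapped at all 37 loci and did not at 0.0271% of all loci. Of the 37 loci 1 had an unadjusted p under 0.05 (4.65% of all loci), and the median log2 fold change was -0.02, beside 0.0025 over all loci. That locus was Grm3, at 13.2 to 18.8 FPKM (median 17.5, n = 8) with JQ1 and 17.6 to 20.8 FPKM (median 19.0, n = 8) with vehicle, with a log2 fold change of -0.17 (SE 0.06, adjusted p = 0.981 in limma). Grin1 stood at 193 to 257 FPKM with JQ1 and 188 to 236 FPKM with vehicle, and its log2 fold change of 0.03 had a 95% interval of -0.10 to 0.15. For Gria2 the groups ran from 541 to 826 FPKM and from 504.8 to 812 FPKM, with a log2 fold change of 0.08 and an interval of -0.16 to 0.32. Grm4, at 3.52 to 5.37 FPKM with JQ1 and 3.45 to 5.42 FPKM with vehicle, had a log2 fold change of 0.03 with an interval of -0.19 to 0.25, and Grik5 and Grik2 had 0.11 (-0.03 to 0.25) and -0.0017 (-0.14 to 0.14). These 5 intervals leave out the point values without the GC offset in aged APP mice. Those were -0.36 for Grin1, 0.44 for Gria2, -0.72 for Grm4, -0.31 for Grik5 and 0.35 for Grik2. Their own errors, given above as SEs, were not taken into account here. With the GC offset they were -0.10, 0.13, -0.43, -0.02 and 0.08. The offset values for Gria2, Grik5 and Grik2 lay inside the intervals, that for Grin1 at the edge and that for Grm4 outside. The young intervals came from a fit without a GC correction. Age, sex, genotype, duration and unit all differed between the experiments, and the difference was not tested.

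The 5 cornichon and Shisa genes all had higher means with JQ1 in young mice, with log2 fold changes from 0.0055 for Cnih3 to 0.23 for Shisa6 (SE 0.16) and a smallest adjusted p of 0.981 in limma. Gria4, chosen here after its values were seen, had a log2 fold change of -0.42 (SE 0.29) in young mice. It rested on the vehicle-treated replicates 4 and 5 at 77.1 and 88.0 FPKM, while the other 6 vehicle-treated mice lay between 22.1 and 29.5 FPKM and the JQ1-treated mice between 19.5 and 28.5 FPKM, and the locus is joined with Gm23811 in the FPKM files. Gria1 stood at 153 to 254 FPKM (median 169) with JQ1 and 150.4 to 222 FPKM (median 191) with vehicle, Gria3 at 81.7 to 95.3 FPKM (median 90.8) and 84.6 to 99.8 FPKM (median 93.6), and Grm5 at 51.8 to 69.3 FPKM (median 60.1) and 45.4 to 63.9 FPKM (median 59.2). Cnih2 stood at 133 to 254 FPKM (median 188) with JQ1 and 145 to 198 FPKM (median 164) with vehicle, Cacng7 at 62.1 to 77.2 FPKM (median 72.1) and 65.1 to 81.9 FPKM (median 71.7), and Grid1 at 12.6 to 14.6 FPKM (median 13.0) and 13.0 to 14.97 FPKM (median 13.2). The larger loci of Grin2d and Neto1 had log2 fold changes of -0.10 (SE 0.12) and -0.04 (SE 0.07).

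Genes that assemble, anchor and feed these receptors were counted in 4 further groups. Of 14 genes for receptor assembly and trafficking, 16 synaptic scaffolds and 11 secreted or membrane organizers of the synapse, 0 passed edgeR's threshold in any of the 3 aged comparisons, with 9, 10 and 7 of them lower with JQ1 in APP mice. At an unadjusted p under 0.05 these groups held 4, 3 and 3 genes with JQ1 in APP mice, beside 17.6% of all genes. DESeq2 called Pick1 (-0.21, adjusted p = 0.0329) of the first group, the scaffolds Grip2 (-0.39, 0.0482) and Dlgap3 (-0.37, 0.0488) and the organizer Lrrtm2 (0.32, 0.0449) with JQ1 in APP mice, and the organizer Cbln1 (1.21, 0.0332) in vehicle-treated APP mice against WT mice. Without a filter on low counts it called 2.7% and 2.86% of all genes in these comparisons. The exonic GC content was 52.1% for Pick1, 58.8% for Grip2 and 63.9% for Dlgap3, which were lower with JQ1. It was 38.4% for Lrrtm2, which was higher, and the part of GC content in these calls was not tested. Of 9 genes for glutamate transport and turnover 2 passed edgeR's threshold in JQ1-treated APP mice against WT mice (2.06% of all genes did). Slc1a3, the glial glutamate transporter GLAST, rose by 0.49 on the log2 scale (SE 0.12, adjusted p = 0.0329 in edgeR), and Slc1a1, the neuronal transporter EAAC1, fell by 0.29 (SE 0.07, adjusted p = 0.0441). Slc1a3 is also 1 of the 6 astrocyte markers, of which 3 rose in that comparison. In young WT mice 0 of the 52 loci of the 4 groups passed limma's threshold, and 2 had an unadjusted p under 0.05, beside 4.65% of all loci.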

How the data were processed

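CA1 was microdissected, and RNA was sequenced on a HiSeq2000. Of 33 samples in the labels, 32 had values and were analysed, and aged WT replicate 2 was not analysed here. The authors aligned reads with STAR to mm10, allowing 2 mismatches at most, and for aged mice deposited htseq counts per gene. For young mice the authors deposited FPKM from Cufflinks and Cuffdiff per locus, whose depth is unknown. CASAVA 1.8.2 and TopHat also stand in the submitters' processing notes. The gene annotation used for counting and the use of strand are not given in the sources used here. Rows for reads without a gene were kept out of library sizes, and reads outside exons were 15.4% to 26.9% of the uniquely aligned reads.

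Counts of the 3 aged groups were fitted in 1 model with edgeR 4.0.16 (TMM scaling, filterByExpr, robust quasi-likelihood test) and CPM were TMM-scaled. Young FPKM were tested with limma 3.58.1 (trend, robust) on log2(FPKM + 0.1), where 8 or more samples reached 0.5 FPKM, and fold changes on this scale understate those of low loci. P-values were adjusted by the Benjamini-Hochberg method over all features, with a threshold of 0.05. DESeq2 1.42.0, other scalings, filters, offsets (a spline of 5 degrees of freedom in GC content and length), the replicate number as a block and the omission of each library were alternatives. Fits were tested on simulated data. Coordinates, exon lengths and GC content came from GENCODE M21 (GRCm38, which is mm10), and promoters from RefSeq on GRCm38.p6. Exon lengths joined all exons of a gene, and GC content was that of its longest transcript.

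The 36 genes, the other lists and the tests were chosen with earlier results of these data known. Full values are given for 14 genes: the 10 with the smallest p in any comparison, then the leading gene of each group not among them. Same-numbered samples did not deviate together on average, with a mean correlation of -0.023 in 14 aged pairs (-0.47 to 0.34) and of 0.026 in 8 young pairs (-0.07 to 0.10). Aged pairs of different numbers ran from -0.45 to 0.53. The number was used as a block only in alternatives, and whether same-numbered samples shared a batch was not tested. The floor of 3 counts covers counting error only. A gene of the check of labels and a gene of the other lists are not reported here.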

Additional observations from a re-analysis of the deposited data

Results flagged for a closer look

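Neto1 stood at 125 CPM in aged WT replicate 1, while the other 3 WT libraries lay between 64.2 and 74.0 CPM, and the gap took up 0.837 of the range of the group. The CA3 marker sum of this library was also the highest of the WT libraries, and its part in the level of Neto1 was not tested. The first locus of Neto1 stood at 28.8 FPKM in vehicle-treated young WT replicate 3, against 21.3 to 24.3 FPKM in the other 7 mice (gap share 0.598). Grid1 stood at 14.97 FPKM in vehicle-treated young WT replicate 8, against 13.0 to 13.9 FPKM in the others (gap share 0.541). Of the 74 groups of values examined in this way chance sets about 1 in 20 apart.

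Grm3 was above the vehicle mean in all 6 JQ1-treated APP mice, by ratios of 1.15 to 2.01 (the highest in the library labelled APP JQ1 replicate 4, which goes against its label), and below it in all 8 JQ1-treated young WT mice, by ratios of 0.694 to 0.987. The difference between the experiments was not tested, and age, sex, genotype, duration and unit differed between them.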

How the results depend on the processing

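With JQ1 in APP mice the number of the genes past the threshold was 6 in DESeq2 (749 of 27729 genes in all), 5 with the share of reads outside exons as a covariate (517 of 16962 in all) and 2 with at least 10 counts in every sample (217 of 14211 in all). It was 0 with the GC offset (25 of 16962 in all), with the GC and length offset (42), with that offset and the replicate block (33), without 3 libraries over 24% of reads outside exons (65 of 16860) and without the 3 libraries with marker levels apart (95 of 17777). It ran from 0 to 5 when 1 library was left out (65 to 446 genes in all), with 5 without aged WT replicate 1. In the main fit 184 of 16962 genes in all had passed. The covariate and both omissions of 3 libraries were chosen after seeing the data. In vehicle-treated APP mice against WT mice it was 2 in DESeq2 (792 of 27729 genes in all) and 1 with only the 2 groups compared (679 of 16441), and ran from 0 to 1 when 1 library was left out (154 to 601 genes in all). In JQ1-treated APP mice against WT mice it was 1 in DESeq2 (790 of 27729 genes in all) and 1 with the GC and length offset (519 of 16962). With the replicate block it was 1, 0, 0 and 0 in the 4 comparisons, where 87, 35, 21 and 0 features in all passed. The cause of these shifts was not tested. Of 623 values under alternatives other than the omission of 1 library, 567 kept direction and side of the threshold, 5 lost the threshold, 14 passed it and 37 turned direction. Of 912 with 1 library left out these numbers were 856, 11, 12 and 33.

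Directions under alternatives were followed for the 14 genes with full values, and a turn was counted against 0. In the 3 fits with an offset the medians over all genes lay below 0 against WT mice. They were -0.069 (GC), -0.067 (GC and length) and -0.073 (with the replicate block) in vehicle-treated APP mice. In JQ1-treated APP mice they were -0.080, -0.076 and -0.079. Grik5 and Grin2d in vehicle-treated and Grik2 in JQ1-treated APP mice turned to values nearer 0 than these medians. With JQ1 in APP mice the GC offset, the GC and length offset, and that offset with the replicate block turned Gria3 (-0.17, -0.18 and -0.18) and Cnih2 (0.036, 0.024 and 0.013), the last 2 turned Grik5 (0.013 and 0.012), and the first turned Neto1 (-0.0015). In vehicle-treated APP mice against WT mice these 3 fits turned Grin1 (-0.18, -0.16 and -0.10), Grik5 (-0.025, -0.024 and -0.00969) and Cacng7 (-0.11, -0.12 and -0.17), the GC offset turned Grin2d (-0.0085), the replicate block turned Cnih2 (0.069), and the omission of the 3 libraries with marker levels apart turned Grin1 (-0.092) and Cacng7 (-0.088). In JQ1-treated APP mice against WT mice the 3 fits turned Grik2 (-0.037, -0.046 and -0.061) and Grm5 (-0.12, -0.12 and -0.13), and the replicate block with the offset turned Grm3 (-0.084) and Grik5 (0.0021). There Grm5 also turned with the replicate block alone (-0.021) and without the libraries over 24% (-0.00589), and Neto1 without those with marker levels apart (0.096). In young mice the GC and length correction turned Grm4 (-0.039), Grin1 (-0.016) and Grik2 (0.027), and median-ratio rescaling turned Grik2 (1.18e-05).

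With 1 library left out, Cacng7 ran from -0.059 to 0.15, Cnih2 from -0.19 to 0.072 and Grin1 from -0.075 to 0.084 in vehicle-treated APP mice against WT mice, and Grm5 from -0.055 to 0.11 and Neto1 from -0.28 to 0.069 in JQ1-treated APP mice against WT mice. In young mice Cacng7 ran from -0.045 to 0.0061, Gria1 from -0.086 to 0.019, Grik2 from -0.033 to 0.039, Grin1 from -0.011 to 0.048, Grm4 from -0.020 to 0.079 and the first locus of Neto1 from -0.083 to 0.0030. The log2 ratio of Grin2a to Grin2b ran from 0.49 to 0.93 with JQ1 in APP mice, from -1.03 to -0.65 in vehicle-treated APP mice against WT mice and from -0.31 to 0.11 in JQ1-treated APP mice against WT mice, where Gria1 to Gria2 ran from -0.10 to 0.015.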
